A study of Mus musculus with 2 samples.

Results

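The genes described here encode surface proteins with which myeloid cells start, sustain or restrain T-cell responses, and they were taken from a comparison of osteoclasts with macrophages grown from mouse bone marrow. The 8 members were listed by name: Cd80, Cd86 and Icosl (costimulatory ligands of the B7 family), Cd274 and Pdcd1lg2 (the PD-1 ligands PD-L1 and PD-L2), Cd40 (the receptor for CD40 ligand), Cd83 (a surface protein of activated antigen-presenting cells) and Havcr2 (TIM-3, an inhibitory receptor). Cd40 and Havcr2 encode receptors rather than ligands in the strict sense. All probes that the platform annotation assigns to these symbols were taken, which gave 17 of 45281 probes and 8 of 19057 genes.

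The osteoclast sample was made from bone marrow macrophages by 3 days of culture in soluble RANKL at 30 ng/ml plus 25 ng/ml of M-CSF, the growth factor of macrophages; RANKL is the cytokine needed for osteoclast differentiation. The macrophage sample was grown with M-CSF alone at 25 ng/ml, and both began as unsorted marrow of tibia and femur kept in M-CSF for 4 days, from C57BL/6J mice 8 to 12 weeks old. Each sample represented 3 mice and was read on 1 Illumina bead array, the descriptions place the arrays on different chips, and the time at which macrophages were collected is not given. Every difference is therefore between 2 samples with no replicate check and no test, and chip, handling and cell type cannot be told apart.

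A naive T cell needs an antigen signal and a costimulatory signal. CD80 and CD86 deliver costimulation through CD28 and are also bound by CTLA-4, which restrains the T cell, while ICOS ligand acts on activated T cells through ICOS. PD-L1 and PD-L2 engage PD-1 and dampen T-cell activity. Engagement of CD40 by CD40 ligand licenses macrophages and dendritic cells to raise their costimulatory ligands. CD83 is known to keep MHC class II and CD86 on the cell surface by opposing a ubiquitin ligase, and TIM-3 is found on myeloid cells as well as on exhausted T cells.

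All members but Pdcd1lg2 gave signal above background on both arrays, and their differences went both ways. At their brightest probes Cd86, Cd40 and Cd83 were about 10-fold lower in the osteoclast sample, Icosl and Cd274 were lower by smaller factors, Cd80 was at a similar level after normalization, and Havcr2 was higher. Pdcd1lg2 was not detected on either array. By the size rule of at least 2-fold, 5 of the 7 detected members were lower, 1 was higher and 1 lay within 2-fold. Over all 13002 detected genes, 8.21% were at least 2-fold lower, 11.5% at least 2-fold higher and 80.3% within 2-fold. The median difference (osteoclasts minus macrophages, on a log2 scale of background-corrected intensity plus an offset of 16) was -1.94 for the 7 members and -0.05 for all detected genes. In the same direction as the lower members, 7 of 7 measured macrophage markers and 9 of 9 measured granulocyte markers were at least 2-fold lower in osteoclasts. In the direction of Havcr2, 7 of 8 osteoclast markers, all 6 epidermal and all 6 skeletal muscle markers were at least 2-fold higher. In bulk samples, fewer cells that express a gene and less RNA per cell cannot be told apart.

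RefSeq promoter entries (build GRCm38.p6) were matched for 5 members, and none was matched for Cd86, Cd40 and Cd83. Sequences are shown for the 3 matched members that differed by at least 2-fold, so that the single higher gene can be set beside lower ones. Each line gives the 250 bases that precede the annotated start, 5′ to 3′ on the plus strand, with matches to the searched motifs in capitals. Havcr2 lies at chr11:46454681-46454930, Icosl at chr10:78069118-78069367 and Cd274 at chr19:29367188-29367437.
Havcr2: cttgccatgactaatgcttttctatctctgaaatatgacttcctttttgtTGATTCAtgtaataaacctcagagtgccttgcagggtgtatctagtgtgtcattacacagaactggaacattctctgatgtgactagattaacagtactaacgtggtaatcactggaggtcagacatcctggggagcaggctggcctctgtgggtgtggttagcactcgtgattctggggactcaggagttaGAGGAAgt
Icosl: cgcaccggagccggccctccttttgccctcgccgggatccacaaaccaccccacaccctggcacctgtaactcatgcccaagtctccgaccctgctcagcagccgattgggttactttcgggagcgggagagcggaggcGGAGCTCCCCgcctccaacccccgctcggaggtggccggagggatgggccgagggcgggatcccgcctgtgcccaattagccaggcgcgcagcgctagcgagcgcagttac
Cd274: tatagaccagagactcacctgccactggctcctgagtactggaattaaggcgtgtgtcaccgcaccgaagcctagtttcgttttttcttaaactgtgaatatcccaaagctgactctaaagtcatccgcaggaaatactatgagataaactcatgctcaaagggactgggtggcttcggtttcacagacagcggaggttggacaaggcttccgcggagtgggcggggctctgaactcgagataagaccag

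Havcr2 held TGATTCA, a match to the AP-1 motif TGANTCA, at 200 to 194 bases before the start, and GAGGAA, the core letters bound by PU.1, at 8 to 3 bases before it. Icosl held 1 match to the kappaB consensus at 111 to 102 bases before the start, in the reverse orientation. The Cd274 window held no match to any of the 5 motifs searched. Of the members not printed, Cd80 carried the same TGATTCA at 42 to 36 bases before its start, and Pdcd1lg2 carried a kappaB match and a reverse-strand GAGGAA. Both strands were searched, and across 32851 promoter windows of the same length the AP-1 motif was present in 6.75%, GAGGAA in 23.3% and kappaB in 7.25%. The interferon gamma activated site TTCNNNGAA (7.02% of windows) and the interferon response element (GAAA, any 2 bases, then GAAA; 2.98%) were found in 0 of the 5 member windows. No match overlapped a match to another motif in the 3 windows shown. A match describes letters in the window and says nothing of occupancy.

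**Figure D1:**
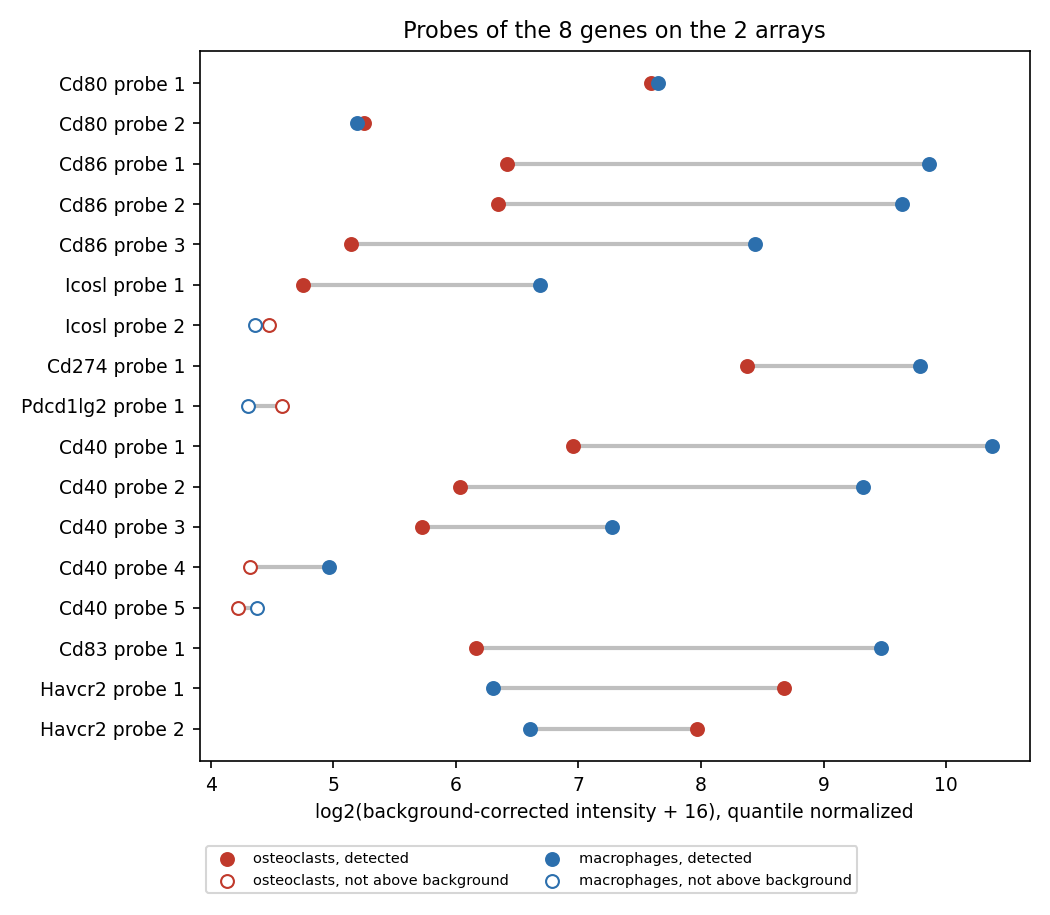
Normalized log2 level of each of the 17 member probes on the osteoclast array (red) and the macrophage array (blue), 1 array each; open circles are values not above background. For all probes of Cd86 and Cd83 and the 3 Cd40 probes detected on both arrays the osteoclast value lies well to the left, the other Cd40 probes lie at or near background, the Havcr2 probes lie the other way round, and the Cd80 pairs nearly coincide; levels of different probes are not comparable with each other.

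Cd86 (B7-2; Entrez Gene 12524) showed the same difference at all 3 of its probes. The probe that stands for the gene, the brightest, had an intensity of 92.8 on the osteoclast array and 685 on the macrophage array. A second probe read 86.7 in osteoclasts and 582 in macrophages, and the dimmest read 20.0 in osteoclasts and 235 in macrophages. The macrophage value was the higher at each probe, and the normalized differences were -3.44, -3.29 and -3.30, a spread of 0.15 log2 units. At the brightest probe Cd86 was 10.9-fold lower in the osteoclast sample, and 56 of 13002 detected genes had a more negative difference. The plain ratio of intensities there was 7.38, smaller than the normalized fold because the osteoclast array was brighter as a whole.

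Cd80 (B7-1; Entrez Gene 12519), which shares both T-cell receptors with CD86, did not follow it. Its brighter probe had an intensity of 239 in osteoclasts and 129 in macrophages, and its other probe had 23.6 in osteoclasts and 11.6 in macrophages. The intensities were 1.86 and 2.03 times higher on the osteoclast array, but quantile normalization brought the differences to -0.05 and 0.06. Its direction thus depended on the scaling, since the difference was 0.81 without normalization between arrays, 0.51 with median scaling and 0.03 in the authors' processed values. Without normalization the median of all detected genes was itself 0.60, and Cd80 exceeded it by 0.22. The difference of Cd80 lay at percentile 49.6 of all detected genes, and that of Cd86 at percentile 0.43.

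Icosl (ICOS ligand; Entrez Gene 50723) was dim on both arrays. Its brighter probe read 8.77 in osteoclasts, close to the detection limit of 7.24 on that array, and 56.9 in macrophages, well above the limit of 4.91 there. The difference was -1.94, or 3.83-fold lower in the osteoclast sample. At a stricter detection limit (a one-sided background p of 0.001) the osteoclast value was not above background, and the gene was at least 3.58-fold lower. The other Icosl probe, annotated to a cDNA clone, read 1.29 in osteoclasts and -1.92 in macrophages and was above background on neither. Averaging both probes therefore gave -0.91, which is within 2-fold.

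Cd274 (PD-L1; Entrez Gene 60533), the inhibitory ligand of PD-1, was bright on both arrays at its only probe, with an intensity of 430 in osteoclasts and 649 in macrophages. It was 2.66-fold lower in the osteoclast sample after normalization, a difference of -1.41. The authors' processed values gave -1.38. Without normalization between arrays the difference was -0.57 and with median scaling -0.87, both within 2-fold, so the call depended on the scaling although the direction did not. Relative to the median of all detected genes, the difference lay between -1.39 and -1.16 in all 12 settings. Pdcd1lg2 (PD-L2; Entrez Gene 58205) read 4.19 in osteoclasts and -3.22 in macrophages at its only probe, neither above background. At a laxer limit (p of 0.05) the osteoclast value counted as detected, but it still allowed no fold. A change of PD-L2 mRNA was therefore not measurable with this probe.

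Cd40 (Entrez Gene 21939) had 5 probes, which the annotation assigns to 3 different transcript records. The brightest, on a coding record, had an intensity of 147 in osteoclasts and 988 in macrophages, which made Cd40 10.7-fold lower in the osteoclast sample (-3.42). A second probe on the same record read 63.3 in osteoclasts and 458 in macrophages, a difference of -3.29. The third read 44.2 in osteoclasts and 94.7 in macrophages, and its difference of -1.56 was 1.87 log2 units short of that of the brightest. The 3 probes thus shared a direction but not a size. A probe on a non-coding transcript record was above background in macrophages only, at -4.04 in osteoclasts and 7.59 in macrophages, which allowed a bound of at least 1.21-fold lower. The last probe, on another coding record, read -9.33 in osteoclasts and -1.55 in macrophages and was above background on neither array. Averaging all 5 probes gave -1.81 for the gene.

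Cd83 (Entrez Gene 12522) was read by 1 probe, with an intensity of 72.2 in osteoclasts and 510 in macrophages. It was 9.87-fold lower in the osteoclast sample (-3.30). Unlike Cd80 (-0.05), the genes Cd86, Cd40 and Cd83 were thus all lower in the osteoclast sample. At the brightest probes their factors were close, with between 56 and 70 of all detected genes showing a more negative difference, but the mean of all probes was -1.81 for Cd40, against -3.34 for Cd86 and -3.30 for Cd83. Differences of at least 8-fold were rare among detected genes, with 0.777% that much lower.

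Havcr2 (TIM-3; Entrez Gene 171285) was the 1 member that was higher in the osteoclast sample. Its brighter probe had an intensity of 534 in osteoclasts and 40.1 in macrophages. The other probe read 318 in osteoclasts and 52.5 in macrophages. Both probes were higher on the osteoclast array, by 2.38 and 1.37 log2 units, so the gene was 5.20-fold higher at the brighter probe and 2.58-fold higher at the other. The probes differ in size by 1.01 log2 units. In the authors' processed values the differences were 2.29 and 1.37. Among all detected genes 338 had a larger positive difference.

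**Figure D2:**
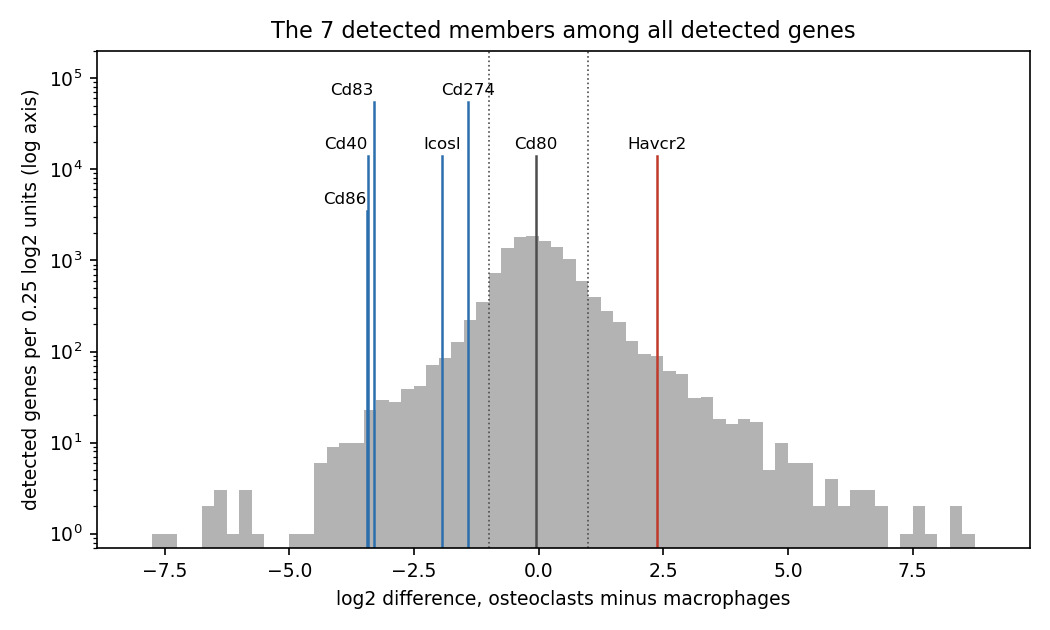
Histogram of the log2 difference (osteoclasts minus macrophages) of all 13002 detected genes, in steps of 0.25 with a log count axis; vertical lines mark the 7 detected members at their brightest probe and dotted lines mark 2-fold. Cd86, Cd40 and Cd83 sit together in the lower tail between -3.44 and -3.30, and Havcr2 sits in the upper tail at 2.38.

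The genes nearest to each member by Euclidean distance over its 2 normalized log2 values were taken as those with the most similar pattern, a measure over 2 arrays only that also uses brightness, which differs between probes for reasons other than mRNA amount. Nearest to Cd274 were H2-DMb1 (an MHC class II peptide-loading subunit, difference -1.41, distance 0.06) and Lgals9 (galectin 9, -1.40, distance 0.07). H2-Aa (an MHC class II alpha chain, -3.43) and Eva1b (-3.06) were nearest to Cd40, at distances of 0.25 and 0.33. For Cd86 they were Siglec1 (the sialic acid receptor of macrophages, -3.20) and Slpi (a secreted protease inhibitor, -3.48), and for Cd83 Lyl1 (a haematopoietic transcription factor, -3.34) and Gm4951 (-3.11). Icosl had A530032D15Rik (-2.03) and Jaml (a junctional adhesion molecule, -2.02) closest to it, Cd80 had Dera (-0.06) and Rock1 (-0.04), and Havcr2 had Pcdh7 (a protocadherin, 2.47) and Emp2 (an epithelial membrane protein, 2.34).

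Other genes of the same T-cell contacts mostly lay within 2-fold, as did 80.3% of all detected genes. Among 9 relatives of the B7 and butyrophilin families, 5 were detected, with 1 higher by the size rule, none (0) lower, 4 in between and a median of 0.43 (2 higher with median scaling and without normalization). The higher gene was Cd276 (B7-H3), 2.23-fold, at 77.8 in osteoclasts and 9.57 in macrophages. Vsir (VISTA, an inhibitory B7 relative) differed by -0.86, with 954 in osteoclasts and 985 in macrophages, and Vsig4 (an inhibitory complement receptor of macrophages) by 0.60. Of 8 listed genes, TNF superfamily ligands and the receptor HVEM, 5 were detected and all 5 lay within 2-fold. Their intensities were at or below 31.8 on either array. Tnfsf4 was at least 2-fold higher without normalization (1.09) and in the authors' processed values (1.26). Tnfsf14 (LIGHT) differed by -0.93 and Tnfsf9 (4-1BB ligand) by 0.16.

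Nectins and SLAM receptors gave 3 lower, 0 higher and 6 within 2-fold among 9 detected genes, with a median of -0.47. Without normalization 1 was lower and 2 were higher, and the median was 0.13. Cd48 (the ligand of 2B4) differed by -1.97, with 58.3 in osteoclasts and 160 in macrophages. Slamf7 differed by -1.77 and Ly9 by -1.47. Among the partners of TIM-3, Lgals9 was 2.64-fold lower in the osteoclast sample, at 448 in osteoclasts and 671 in macrophages, while Havcr2 itself was higher. Lgals9 was within 2-fold without normalization (-0.56). Ceacam1, another reported partner of TIM-3, differed by -0.28, and by 0.60 without normalization. The only probe of Hmgb1 read -1.01 in osteoclasts and 10.8 in macrophages, above background in macrophages only. It allowed a bound of at least 1.37-fold lower, but a probe this dim carries little information about the gene. Of 7 adhesion genes of the T-cell contact, Cd44 was 2.37-fold higher at its brightest probe, although its 6 detected probes ranged from -0.62 to 1.45. Itgal (the LFA-1 alpha chain) differed by -1.80, and the other 5, Icam1 among them at -0.42, lay within 2-fold. Without normalization 2 adhesion genes were higher and 0 lower.

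Genes of CD40 signalling and of the turnover of these surface proteins differed in both directions. Of 10 detected CD40 signalling genes, 1 passed 2-fold upward and 1 downward, and the median was -0.36. These depended on the scaling, with 2 upward, 0 downward and a median of 0.14 with median scaling, and 4 upward, 0 downward and a median of 0.44 without normalization. Traf1 (an adaptor of TNF receptors) was 7.92-fold higher, at 915 in osteoclasts and 46.1 in macrophages, and its second probe differed by 4.43. Birc3 (a ubiquitin ligase of the same complexes) differed by -1.17, and by -0.36 without normalization. Among 5 surface turnover partners, Marchf1 (the ubiquitin ligase that removes CD86 and MHC class II from the surface) was 5.99-fold lower, with 94.4 in osteoclasts and 365 in macrophages. Marchf1, Cd83 and Cd86 were thus all lower in the osteoclast sample. Cmtm6, which stabilises PD-L1 at the surface, was 3.62-fold lower, at 743 in osteoclasts and 1567 in macrophages. Its relative Cmtm4 was 3.37-fold higher, at 1596 in osteoclasts and 250 in macrophages, and its probes differed by 1.75 and 1.83.

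The listed interferon receptors and regulators were mostly lower after quantile normalization, and whether they act on the members was not tested. The median of 13 detected genes was -1.32, with 8 past 2-fold downward, 0 upward, and 5 neither. Over all detected genes 8.21% were at least 2-fold lower and 11.5% at least 2-fold higher. With median scaling 3 passed downward and 0 upward (median -0.84), and without normalization 3 passed downward and 1 upward (median -0.53). Irf8 was 10.1-fold lower in the osteoclast sample, with 120 in osteoclasts and 785 in macrophages. Ciita (the class II transactivator) was 7.40-fold lower at an osteoclast intensity of 7.37, close to the limit there, and 123 in macrophages. Socs3 (a cytokine signal inhibitor) was 5.05-fold lower and Nlrc5 (the class I transactivator) 2.81-fold. Without normalization Irf8 differed by -2.51 and Nlrc5 by -0.62. Of 10 detected genes with other T-cell suppressive products, 2 passed 2-fold downward and 0 upward, with 1 upward without normalization. Il10 was 6.00-fold lower, at 70.5 in osteoclasts and 293 in macrophages, and Arg2 was at least 2.46-fold lower.

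**Figure D3:**
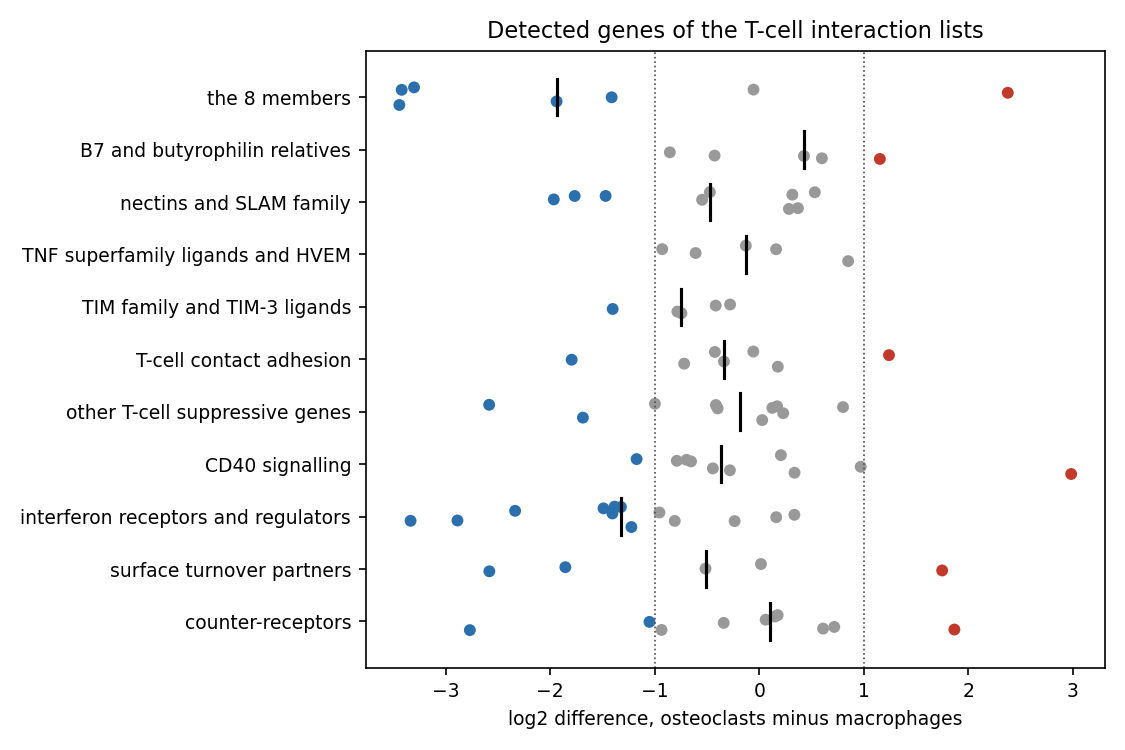
Log2 difference (osteoclasts minus macrophages) of each detected gene in the members and the 10 lists of related genes, at its brightest probe; black bars are list medians, dotted lines mark 2-fold, red genes are at least 2-fold higher and blue genes at least 2-fold lower. The member median of -1.94 and the interferon list median of -1.32 lie furthest to the left.

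Counter-receptors on T cells for these ligands ranged from undetected to well above the detection limits. Cd28 had 143 in osteoclasts and 604 in macrophages, which is 6.82-fold lower in the osteoclast sample, and Cd3e, Cd3d, Cd3g, Cd8a and Cd5 were above background on neither array. Tnfrsf9 (4-1BB) was at least 2.82-fold higher at its brightest probe, with 81.3 in osteoclasts and -0.77 in macrophages, while its probe detected on both arrays differed by -0.23. Of 10 detected counter-receptors 1, Tnfrsf9, was at least 2-fold higher, 2, Cd28 and Tigit, were lower, and 7 lay within 2-fold. Tigit differed by -1.05, with 12.4 in osteoclasts and 28.4 in macrophages, and by -0.51 without normalization. Btla differed by -0.93, and Tnfrsf4, at 58.9 in osteoclasts and 25.1 in macrophages, by 0.15. Ctla4, Icos and Lag3 were above background in osteoclasts only, at bounds of at least 1.13-fold, 1.08-fold and 1.06-fold higher. Pdcd1, the receptor of Cd274, differed by 0.06, and Cd40lg, the ligand of Cd40, was above background on neither array.

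The listed markers of the labelled cell types mostly differed toward the matching label, but the lists were chosen with earlier results of these data known. In the osteoclast sample 7 of 8 osteoclast markers passed 2-fold upward, with Ctsk (cathepsin K) at 50206 in osteoclasts and 55.4 in macrophages, and Itgb3 within 2-fold. The 7 measured macrophage markers were each at least 2-fold lower there but detected on both arrays, with Fcgr1 17.2-fold and Adgre1 2.41-fold lower.

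Some lists of markers of other cells differed in the direction of the lower members or of Havcr2, and others differed little or both ways. The summed intensity of the 9 measured granulocyte markers was 866 in osteoclasts and 48914 in macrophages. Of these, 7 were above background on both arrays, with S100a8 at 595 in osteoclasts and 19536 in macrophages. The other 2, Mpo and Retnlg, were above background in macrophages only. Of 8 dendritic cell markers 6 were detected, with summed intensities of 66.6 in osteoclasts and 243 in macrophages. Batf3 was at least 10.5-fold lower in the osteoclast sample, Flt3 at least 1.23-fold and Siglech at least 1.65-fold, Itgax, Ccr7 and Zbtb46 lay within 2-fold, and Xcr1 and Clec9a were above background on neither array. The B cell markers Ms4a1 and Pax5 were above background on neither array. The 3 detected ones, Cd79b, Cd22 and Blnk, differed by -2.36, -0.77 and -0.24, with a median of -0.77. Summed intensities, which are not normalized between arrays, were 1257 in osteoclasts and 996 in macrophages over 5 measured markers, mostly from Blnk. Among 5 measured NK cell markers Ncr1, Klrk1 and Eomes were above background on neither array, Klrb1c differed by -0.04, and Nkg7 was at least 2.70-fold lower, with -3.54 in osteoclasts and 34.1 in macrophages. The summed intensities of the NK markers were -5.96 in osteoclasts and 34.5 in macrophages. In the direction of Havcr2, all 6 epidermal markers (17981 in osteoclasts and 94.4 in macrophages) and all 6 skeletal muscle markers (8661 in osteoclasts and 17.9 in macrophages) were higher in the osteoclast sample, as were 4 of 6 fibroblast markers, or 3 at their bounds (1920 in osteoclasts and 28.1 in macrophages). Over 7 measured T cell markers the summed intensity was 97.8 in osteoclasts and 9.89 in macrophages. The 2 detected ones went opposite ways: Thy1, which fibroblasts also carry, was higher in osteoclasts by at least 4.23-fold, and Cd4, at -7.52 in osteoclasts and 22.2 in macrophages, was at least 2.00-fold lower. The part of these cells in the member differences was not tested.

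The member differences kept their sign in the 12 settings tried, except for that of Cd80. Over these settings Havcr2 ranged between 1.87 and 3.22, Cd86 between -3.44 and -2.63, Cd83 between -3.30 and -2.50 and Cd40 between -3.42 and -1.81 log2 units. The settings that changed only the detection limit, the genes counted or the use of bounds could not move these differences. Averaging all probes could not move those of Cd83 and Cd274, which have 1 probe each.

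**Figure D4:**
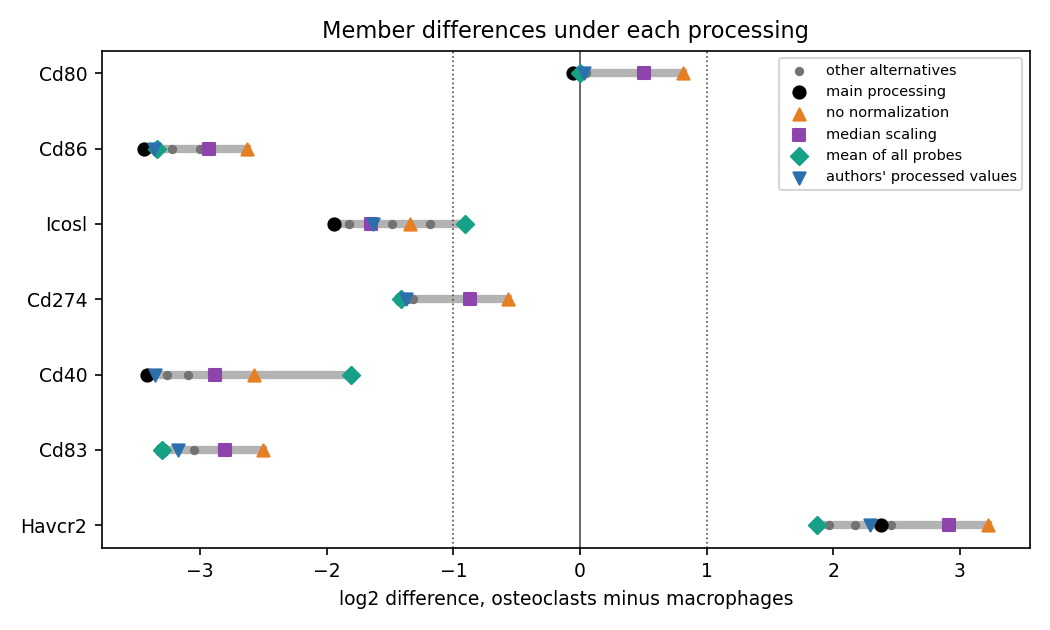
Log2 difference (osteoclasts minus macrophages) of the 7 detected members under the main processing and 11 alternatives; grey bars span the alternatives and dotted lines mark 2-fold. Cd86, Cd40, Cd83 and Havcr2 stay beyond 2-fold, whereas Icosl (at -0.91) and Cd274 (at -0.57) enter the 2-fold range under some settings and Cd80 changes sign.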

How the data were processed

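The deposited non-normalized table gives a linear intensity for each Illumina probe on each array. Negative values (36.9% of probes in osteoclasts and 38.4% in macrophages) point to background subtraction before deposit; scanner software is not given in the sources used here. In the deposited matrix, the authors' processed log2 values (medians 5.05 in osteoclasts and 5.00 in macrophages) have an unstated normalization and centring. Over 5844 probes above 200 on both arrays their difference followed the log2 intensity ratio with a slope of 0.97 (r = 0.999 across probes, which are not replicates), which sets scale and direction.

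The intensities were corrected with limma's normexp (limma 3.58.1, R 4.3.3), with background mean and SD from the mode and the spread below it (-5.33 and 5.40 in osteoclasts, -3.60 and 3.66 in macrophages), since detection p-values and control probes are not used here and neqc, the first choice, needs them. An offset of 16 was added before log2 and quantile normalization. A probe was detected above a one-sided background p of 0.01 (limits 7.24 in osteoclasts and 4.91 in macrophages), which 50.8% of probes passed in osteoclasts and 47.9% in macrophages. The steps were run on simulated data in which only bright probes were changed, so dim genes were not covered. The error allowed there was up to 2-fold, as wide as the size rule. A gene was represented by its brightest probe, and 34885 probes had 1 gene, 18 several and 10378 none listed. Symbols were checked against RefSeq by Entrez identifier (34807 matched, 0 changed). Bounds ("at least") set the dim array at the higher of the probe's own value and the lowest detected signal. Fold changes on the log2(intensity + 16) scale understate changes of dim genes. With 1 array per group no test was run and a 2-fold size rule was used; the number of arrays limits the precision. Summaries used pandas 2.3.3 and numpy 2.4.6 under Python 3.11.15.

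Members and the 20 other gene lists (171 entries, 160 on the array) were chosen with earlier results of these data known. Named genes were all member probes, up to 4 detected genes per list with the largest differences, and the 2 nearest genes per member; other list genes were named after their values were seen. Alternatives changed the background correction, offset, normalization, detection limit, probe choice, genes counted and values used; bounds were added after seeing the data.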

Additional observations from a re-analysis of the deposited data

How the results depend on the processing

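Of the member differences, 5 values crossed the 2-fold limit or changed sign by over 0.1. Icosl was -0.91 with the mean of all probes, and -1.18 with an offset of 50. Cd274 was -0.87 with median scaling and -0.57 without normalization between arrays, and Cd80 was 0.51 and 0.81 in the same settings. Relative to the median of all detected genes, which was 0.29 with median scaling and 0.60 without normalization, Cd274 was -1.16 in both. The number of members at least 2-fold lower was 4 in those settings and with the mean of all probes, and 5 otherwise; 1 was higher in all 12. The member median ranged from -1.94 to -1.32. Cd80 also turned to 0.03 in the authors' processed values, 0.04 with cyclic loess and 0.002 with the mean of all probes. Over all detected genes 1500 were at least 2-fold higher and 1067 lower (58.4% of calls higher), against 2501 and 593 with median scaling (80.8%) and 3839 and 374 without normalization (91.1%). The cause was not tested. Of the values for the other lists, 589 kept their side of the limits, 66 moved and 4 no longer passed 2-fold. No paired analysis was possible because each group has 1 array. Probes near the limits (Icosl in osteoclasts, Pdcd1lg2) carry little information, and the rate of false detection could not be measured without control probes.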
